A study of Homo sapiens with 9 samples.

Results

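The 9 genes described here serve defence against oxidants and electrophiles: NFE2L2, which encodes the transcription factor NRF2, its inhibitor gene KEAP1, and 7 genes known as NRF2 targets, HMOX1, OSGIN1, SRXN1, GCLC, GCLM, TXNRD1 and NQO1. They were taken by symbol from the probe annotation, keeping every probe set annotated to exactly 1 gene, and they make up 9 of the 19775 genes with such a probe set. They were measured in PANC-1, an established human pancreatic adenocarcinoma cell line, with 9 HG-U133 Plus 2.0 arrays from Affymetrix. The day after seeding, cells were moved to a medium low in serum and held for 72 hours with vehicle (DMSO), with 0.1 µM TVB-3166 or with 1.0 µM TVB-3166, the compound that the series title calls an inhibitor of fatty acid synthase, with 3 arrays in each group. The descriptions put the compound in DMSO too, so all 3 groups received the vehicle. Nothing in the labels says that the triplicates were separate cultures, so p-values measure the spread between these arrays, which may be technical. The 22Rv1 cells and the shorter treatment that the design text mentions were not analysed here.

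Groups followed the titles, and some labels disagreed with them. The treatment field of the 3 arrays titled 1.0 µM reads 0.1 µM, the description of replicate 1 at 0.1 µM reads DMSO, and the DMSO concentration is given as 0.05% and as 0.5%. All 4 keratins listed as epithelial markers (KRT7, KRT8, KRT18 and KRT19) were above the low-signal filter. Their summed signal was 51018 to 72345 in DMSO, 44445 to 63605 at 0.1 µM and 34310 to 50084 at 1.0 µM, and 3 of the 4 passed the test at 1.0 µM against DMSO. All 4 endocrine markers lay below the filter. Of the acinar, immune, endothelial, stromal, prostate and hepatocyte markers tested none passed at either dose, and no list's summed signal exceeded 622.3. The part of the keratin shift in the values below was not tested. In bulk RNA, fewer cells of a kind and less RNA per cell cannot be told apart, and each array was scaled to the same average. The arrays also fall into 2 sets by the signal of the hybridisation spikes, 4 with higher spike signal and 5 with lower. The 4 are replicate 2 of DMSO, replicate 2 of 1.0 µM, and replicates 1 and 3 of 0.1 µM. No label gives a reason for the split, which was known from an earlier look at these data, and values within each set follow the results.

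In unstressed cells the KEAP1 protein binds NRF2 and hands it to a ubiquitin ligase, so that NRF2 is degraded. Oxidants and electrophiles modify KEAP1, NRF2 then accumulates, pairs with small MAF proteins and binds antioxidant response elements near its target genes. The targets include the enzymes that make glutathione and that keep thioredoxin and peroxiredoxins reduced. Because NRF2 is controlled mainly through the stability of its protein, an array does not measure its activity.

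The antioxidant response element has the core TGACNNNGC, where N is any base. For the related AP-1 site the pattern TGANTCA was used, which allows any base in the middle. Both were searched on both strands of RefSeq promoter windows on build GRCh38.p14, which run from 250 bases before to 50 bases after a gene's start. Of the 9 genes, 8 have windows in that table (11 windows in all, as some genes have several starts), and HMOX1 was not matched. The element core was found in 3 of the 8 genes, GCLM, TXNRD1 and KEAP1, which is 37.5%. It was found in 19.4% of the tested genes with a window and 24.1% of the further listed genes with a window. The pattern TGANTCA was found in OSGIN1 alone of the 8, as TGACTCA, against 7.11% of the tested genes with any base in the middle. The 4 stretches below, from 150 bases before to 20 bases after the start, are shown because they hold these matches, which stand in capitals and do not overlap. They are given 5′ to 3′ on the strand of the gene.
GCLM (chr1:93909411-93909580, minus strand): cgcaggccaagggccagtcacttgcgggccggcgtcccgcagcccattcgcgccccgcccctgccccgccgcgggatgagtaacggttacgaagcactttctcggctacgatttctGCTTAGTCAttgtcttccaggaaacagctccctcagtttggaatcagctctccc
KEAP1, at a start inside the gene (chr19:10502752-10502921, minus strand): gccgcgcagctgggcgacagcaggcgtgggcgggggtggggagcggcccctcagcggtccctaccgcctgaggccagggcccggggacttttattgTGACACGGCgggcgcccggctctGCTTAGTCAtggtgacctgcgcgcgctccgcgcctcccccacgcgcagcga
TXNRD1, at its most upstream start (chr12:104215629-104215798, plus strand): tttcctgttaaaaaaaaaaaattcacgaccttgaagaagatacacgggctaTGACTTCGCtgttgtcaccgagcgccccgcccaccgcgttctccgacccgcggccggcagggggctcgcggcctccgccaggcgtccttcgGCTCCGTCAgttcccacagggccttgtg
OSGIN1 (chr16:83953090-83953259, plus strand): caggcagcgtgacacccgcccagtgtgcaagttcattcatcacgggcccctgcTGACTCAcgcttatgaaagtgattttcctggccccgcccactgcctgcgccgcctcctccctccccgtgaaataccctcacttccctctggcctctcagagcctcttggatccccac
GCLM and KEAP1 held the same match, TGACTAAGC read on the opposite strand, at bases -34 to -26 of GCLM and -31 to -23 of KEAP1 counted from the start. A further window of TXNRD1, at a start inside the gene, also held a match, at bases -102 to -94. A match is a run of letters, and elements farther from the start were outside these windows.

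At 1.0 µM against DMSO, 8 of the 9 genes rose, none fell and KEAP1 did not pass the test. OSGIN1 and HMOX1 rose most, SRXN1 by 3.06-fold and GCLM by 3.00-fold, GCLC by 1.98-fold, and NQO1, TXNRD1 and NFE2L2 by a factor between 1.44 and 1.52. The median log2 change over the 9 genes was 0.99, and over all 13948 tested genes it was 0.0064. Among all tested genes 12.3% were called higher and 11% lower in that comparison. The 9 genes were chosen with earlier results of these data known. The shares and medians over all tested genes, here and below, are therefore a description and not a test of the 9. The threshold was an adjusted p of 0.05 in limma (Benjamini-Hochberg over all tested genes), and changes are log2 differences of (signal + 16) ± limma standard error, n = 3 arrays per group. The signal is the array's MAS5 intensity, and the added 16 makes the change of a dim gene smaller than its ratio of signals. In 8 of the 9 genes every array at 1.0 µM lay above every DMSO array, a pattern held by 19.2% of all tested genes.

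At 0.1 µM against DMSO, 5 of the 9 rose (OSGIN1, HMOX1, GCLM, SRXN1 and NQO1), none fell and 4 did not pass the test (TXNRD1, NFE2L2, GCLC and KEAP1). The median change over the 9 was 0.62, against -0.0064 over all tested genes. Of all tested genes 6.89% were called higher and 5.11% lower at this dose. Every array at 0.1 µM lay above every DMSO array for 7 of the 9 genes, all but KEAP1 and GCLC, against 15.5% of all tested genes. The 2 doses share their DMSO arrays, so the values at one dose are not independent of those at the other.

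**Figure D1:**
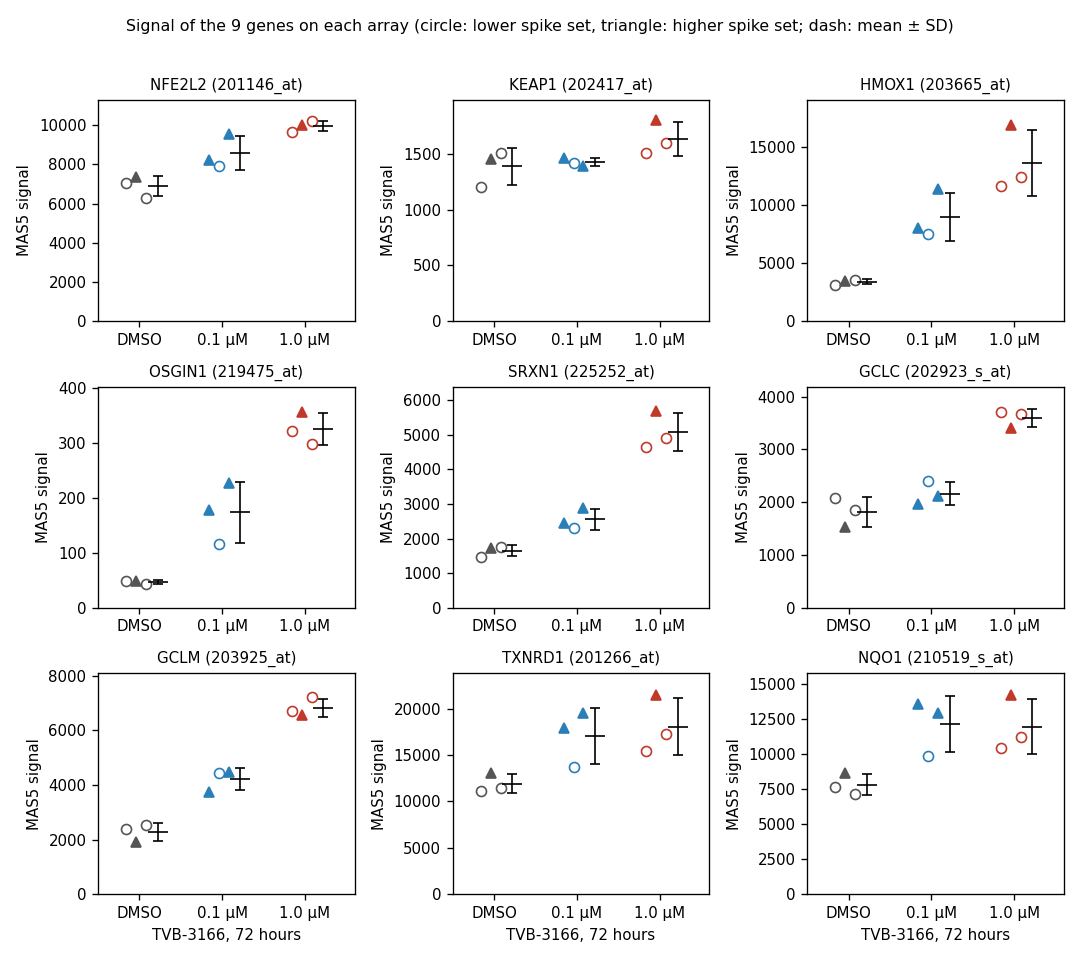
MAS5 signal of the 9 genes on each of the 9 arrays, by group (DMSO, 0.1 and 1.0 µM TVB-3166), from the probe set that stands for the gene; each panel starts at 0, bars give the mean ± SD of 3 arrays, and triangles mark the 4 arrays of higher spike signal. NFE2L2, OSGIN1, HMOX1, SRXN1 and GCLM separate all 3 groups, TXNRD1 and NQO1 overlap between the 2 doses, GCLC overlaps between 0.1 µM and DMSO, and KEAP1 overlaps DMSO at both doses. The share of all tested genes that separate all 3 groups was not counted.

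NFE2L2 (Entrez gene 4780, chromosome 2, 177230303 to 177264727 on GRCh38.p14) had signals of 7055, 7333 and 6311 in DMSO, 8223, 7929 and 9575 at 0.1 µM, and 9664, 10006 and 10197 at 1.0 µM. The 3 groups did not overlap, and the levels stood in the order of dose. The rise at 1.0 µM was 0.53 ± 0.10 (adjusted p = 0.00307), and the change at 0.1 µM was 0.31 (adjusted p = 0.0786). A dimmer probe set of the same gene (1567013_at) had 337, 555 and 387 in DMSO, 725, 463 and 584 at 0.1 µM, and 581, 867 and 694 at 1.0 µM. It rose at 1.0 µM by 0.73 ± 0.21 (adjusted p = 0.0285 over the 32768 probe sets above the filter), with DMSO and 0.1 µM arrays overlapping. The remaining probe set, 1567015_at, lay below the filter signal of 38.95 on average and was not tested.

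KEAP1 (Entrez gene 9817, chromosome 19, 10486125 to 10503356), which encodes the sensor that holds NRF2 low, had signals of 1205, 1453 and 1510 in DMSO, 1464, 1424 and 1395 at 0.1 µM, and 1507, 1803 and 1599.6 at 1.0 µM. Arrays of both doses overlapped those of DMSO, and the 1.0 µM arrays lay above those at 0.1 µM. Its change was 0.24 at 1.0 µM, with a 95% interval of 0.0047 to 0.47 (limma, unadjusted p = 0.0462, adjusted p = 0.136). At 0.1 µM the change was 0.05, with an interval of -0.19 to 0.28.

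OSGIN1 (Entrez gene 29948, chromosome 16, 83953240 to 83966332), an oxidative stress induced growth inhibitor, changed most of the 9 in the reported fit. It had signals of 49.2, 49.3 and 43.5 in DMSO, 178, 116 and 226 at 0.1 µM, and 321, 356 and 298 at 1.0 µM. The DMSO signals lay just above the filter and below the median signal of every array (66.7 to 79.1), and the filter does not show that they exceed background. The 3 groups did not overlap. OSGIN1 rose by 2.43 ± 0.22 at 1.0 µM (adjusted p = 1.06e-05) and by 1.54 ± 0.22 at 0.1 µM (adjusted p = 0.000687). The ratio of mean signals was larger, 6.86 at 1.0 µM and 3.66 at 0.1 µM, because 16 was added before taking logs, and both sizes depend on that dim DMSO level. Under other processing choices the change of OSGIN1 went down to 1.80 at 1.0 µM and 1.06 at 0.1 µM. The lowest changes of HMOX1 were 1.83 and 1.18, so the order of OSGIN1 and HMOX1 depends on the processing.

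HMOX1 (Entrez gene 3162, chromosome 22, 35381096 to 35394207) encodes haem oxygenase 1, which splits haem into biliverdin, iron and carbon monoxide. Its signals were 3115, 3488 and 3508 in DMSO, 7999, 7512 and 11349 at 0.1 µM, and 11616, 16857 and 12376 at 1.0 µM. No array of one group reached into another, although replicate 3 at 0.1 µM came close to the lowest array at 1.0 µM. HMOX1 rose by 1.99 ± 0.17 at 1.0 µM (adjusted p = 6.39e-06) and by 1.38 ± 0.17 at 0.1 µM (adjusted p = 0.000234).

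SRXN1 (Entrez gene 140809, chromosome 20, 646615 to 653200) encodes sulfiredoxin, which repairs overoxidised peroxiredoxins. It had signals of 1461, 1733 and 1750.3 in DMSO, 2454, 2317 and 2880.2 at 0.1 µM, and 4633, 5691 and 4912 at 1.0 µM. All 3 groups were apart, with the wider gap between the 2 doses. SRXN1 rose by 1.61 ± 0.12 at 1.0 µM (adjusted p = 2.11e-06) and by 0.62 ± 0.12 at 0.1 µM (adjusted p = 0.00424).

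TXNRD1 (Entrez gene 7296, chromosome 12, 104215779 to 104350307) encodes the cytosolic thioredoxin reductase, which draws on NADPH. Its signals were 11119, 13041 and 11490 in DMSO, 17941, 13670 and 19567 at 0.1 µM, and 15480, 21456 and 17262 at 1.0 µM. Both treated groups lay above DMSO, and the 2 doses overlapped. TXNRD1 rose by 0.59 ± 0.16 at 1.0 µM (adjusted p = 0.0173), and its change at 0.1 µM was 0.51 ± 0.16 (adjusted p = 0.0586). The call at 1.0 µM was lost without DMSO replicate 1 (0.55, adjusted p = 0.0657) or without DMSO replicate 3 (0.57, adjusted p = 0.0604). Its other probe set, 1561080_at, was below the filter.

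GCLC and GCLM encode the catalytic and the modifier subunit of glutamate cysteine ligase, the enzyme of the rate-limiting step of glutathione synthesis. GCLM (Entrez gene 2730, chromosome 1, 93885199 to 93909430) had signals of 2391, 1914 and 2529.9 in DMSO, 3742, 4453 and 4464 at 0.1 µM, and 6711, 6566 and 7213 at 1.0 µM, with no overlap between groups. It rose by 1.59 ± 0.12 at 1.0 µM (adjusted p = 2.57e-06) and by 0.89 ± 0.12 at 0.1 µM (adjusted p = 0.000392). Its 3 probe sets moved alike, between 1.59 and 1.89 at 1.0 µM and between 0.89 and 1.22 at 0.1 µM, and all 3 were called at each dose.

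GCLC (Entrez gene 2729, chromosome 6, 53497341 to 53545101) had signals of 2076, 1519.8 and 1847 in DMSO, 1969, 2396 and 2122 at 0.1 µM, and 3706, 3398 and 3662 at 1.0 µM. The 1.0 µM arrays stood above all others, while DMSO and 0.1 µM overlapped. GCLC rose by 0.99 ± 0.12 at 1.0 µM (adjusted p = 8.85e-05), and its change at 0.1 µM was 0.26 ± 0.12 (adjusted p = 0.198). The other bright probe set, 202922_at, also rose at 1.0 µM, by 1.08 ± 0.25 (adjusted p = 0.00986). The dim probe set 1555330_at, with signals of 94.8 to 142.8 at 1.0 µM against 31.5 to 84 in DMSO, did not pass the test (0.90 ± 0.38, adjusted p = 0.138).

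NQO1 (Entrez gene 1728, chromosome 16, 69709401 to 69726560) encodes a quinone reductase that reduces quinones by electron pairs and so avoids semiquinone radicals. Its signals were 7635, 8619 and 7129 in DMSO, 13557, 9862 and 12940.1 at 0.1 µM, and 10446, 14177 and 11187 at 1.0 µM. Every treated array lay above every DMSO array, and the 2 doses overlapped over most of their range. NQO1 rose by 0.61 ± 0.15 at 1.0 µM (adjusted p = 0.0119) and by 0.63 ± 0.15 at 0.1 µM (adjusted p = 0.0178). Its other 2 probe sets rose by 0.78 at 1.0 µM, and by 0.75 and 0.70 at 0.1 µM.
The probe sets of NQO1 all have identifiers ending in _s_at, as does the one that stands for GCLC, and such sets can bind several transcripts. For the probe set that stands for NQO1, the call at 1.0 µM was lost without DMSO replicate 3 (0.54, adjusted p = 0.0524). At 0.1 µM it was lost without DMSO replicate 1 (0.61, adjusted p = 0.0613), DMSO replicate 3 (0.56, adjusted p = 0.0707), 0.1 µM replicate 1 (0.54, adjusted p = 0.0769) or 0.1 µM replicate 3 (0.57, adjusted p = 0.0889). Over probe sets, NQO1 201467_s_at kept its call without each array, with adjusted p up to 0.00115 at 1.0 µM and 0.00428 at 0.1 µM.

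**Figure D2:**
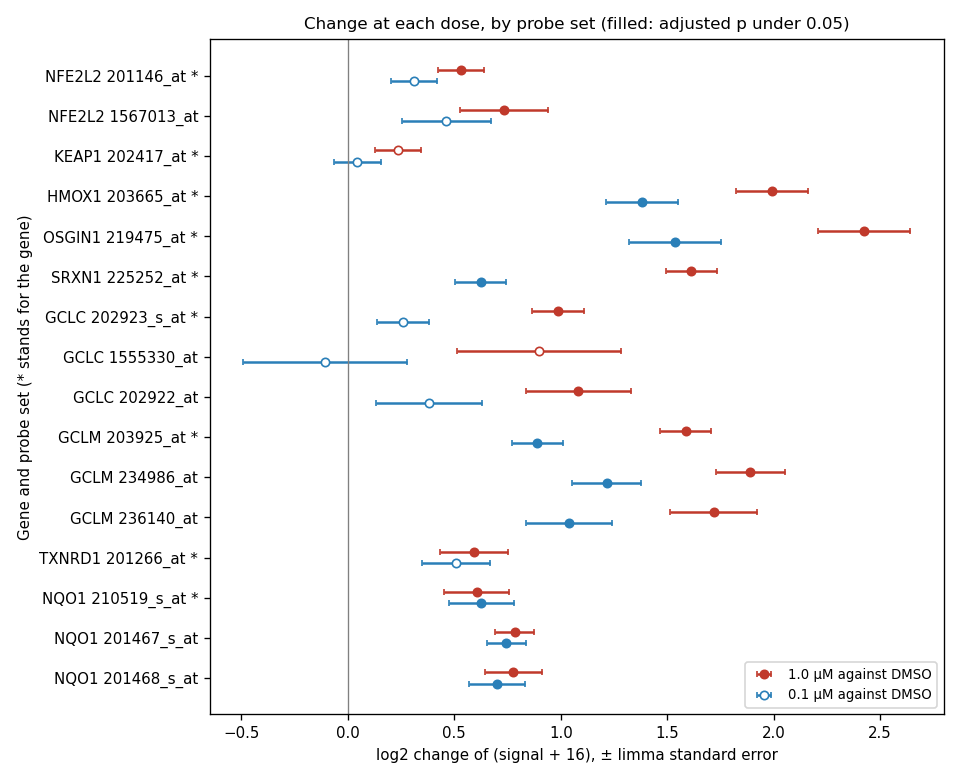
Log2 change of (signal + 16) against DMSO, ± limma standard error, for the 16 probe sets of the 9 genes above the filter, at 1.0 µM (red) and 0.1 µM (blue); filled points passed an adjusted p of 0.05 over all 32768 probe sets, and an asterisk marks the probe set that stands for the gene. At 1.0 µM 14 of the 16 were called higher, all but KEAP1 and GCLC 1555330_at, and at 0.1 µM 9 of the 16. Of all 32768 probe sets, 2929 were called higher at 1.0 µM and 1505 at 0.1 µM.

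The doses were also set against each other. Of the 9 genes, 3 were higher at 1.0 µM than at 0.1 µM, none was lower and 6 did not pass the test, while 0.387% of all tested genes were called higher and 0.43% lower. SRXN1 was higher by 0.99 ± 0.12 (adjusted p = 0.0032), GCLC by 0.73 ± 0.12 (adjusted p = 0.0209) and GCLM by 0.70 ± 0.12 (adjusted p = 0.0219). The further probe sets of GCLC did not pass over all probe sets (202922_at 0.70, adjusted p = 0.337, and 1555330_at 1.00, adjusted p = 0.383). Neither did those of GCLM (234986_at 0.68, adjusted p = 0.136, and 236140_at 0.68, adjusted p = 0.241). OSGIN1 (0.89, adjusted p = 0.092) and HMOX1 (0.61, adjusted p = 0.138) did not pass, although no array at 0.1 µM reached those at 1.0 µM in either gene. The share of all tested genes with the doses apart in this way was not counted. The intervals of the remaining genes were -0.26 to 0.43 for TXNRD1, -0.35 to 0.31 for NQO1, -0.01 to 0.45 for NFE2L2 and -0.04 to 0.42 for KEAP1.

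The calls of GCLC and GCLM between the doses rest on small margins. Each was lost when any of 0.1 µM replicate 1, 0.1 µM replicate 3, 1.0 µM replicate 1 or 1.0 µM replicate 3 was left out, with adjusted p of 0.0738 to 0.123 for GCLC and 0.0567 to 0.13 for GCLM, and GCLM also without 0.1 µM replicate 2 (adjusted p = 0.0519). The call of SRXN1 was kept without each array in turn. Centring each array on its median instead of the deposited scaling gave 1 of the 9 genes called, and over all genes it moved the share of higher among the called from 47.37% to 21.57%.

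**Figure D3:**
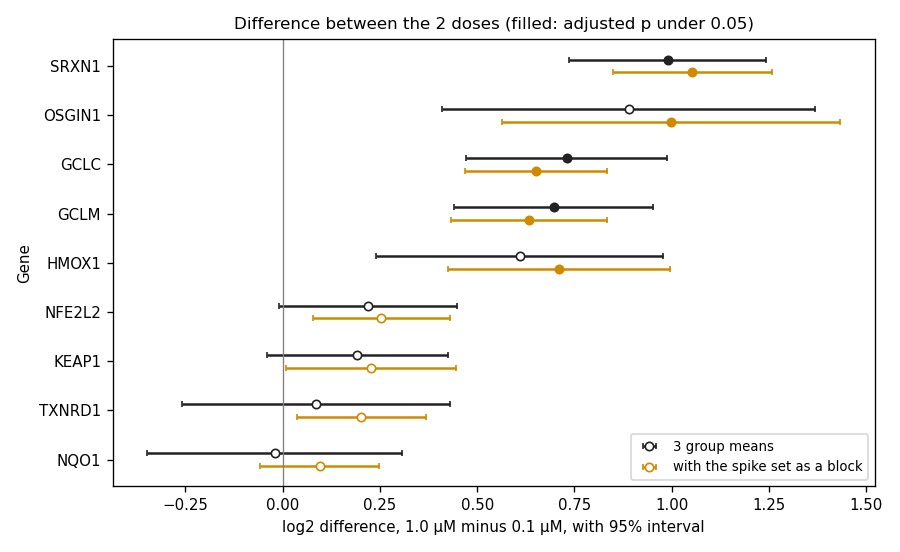
Log2 difference of 1.0 µM minus 0.1 µM for the 9 genes, with 95% intervals, from the model with 3 group means (black) and with the spike set as a block (orange); filled points have an adjusted p under 0.05 over all genes. SRXN1, GCLC and GCLM are filled in both, OSGIN1 and HMOX1 only with the block, and the interval of NQO1 spans 0 in both.

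The 2 spike sets differed in several of the 9 genes. OSGIN1, TXNRD1 and NQO1 were higher on the higher-set arrays in all 3 groups, by 0.33, 0.35 and 0.35 on average. GCLC was lower on them in all 3 groups, with an average difference of -0.24. HMOX1, SRXN1 and NFE2L2 were higher on them in 2 groups, with average differences of 0.30, 0.19 and 0.10. GCLM was lower on them in 2 groups (-0.19 on average), and KEAP1 was higher in 1 (0.11 on average). The higher set holds 1 array of 1.0 µM and 1 of DMSO, and the lower set 1 array of 0.1 µM, and such a lone array is assumed to vary like the other groups. At 1.0 µM against DMSO the 8 called genes were also called within the lower set, which holds 2 arrays of each of these groups. In the higher set the change compares single arrays, so only its value is given in this paragraph. OSGIN1 changed by 2.51 in the higher set and 2.38 in the lower. With the higher set given first each time, HMOX1 changed by 2.27 and 1.85, SRXN1 by 1.71 and 1.57, GCLM by 1.77 and 1.49, and GCLC by 1.15 and 0.91. TXNRD1 changed by 0.72 and 0.53, NQO1 by 0.72 and 0.55, and NFE2L2 by 0.45 and 0.57.

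Calls that involve the lower dose changed with the split. With the spike set as a block, 8 of the 9 genes were called higher at 0.1 µM against DMSO, adding TXNRD1 (0.39, adjusted p = 0.00499), GCLC (0.34, adjusted p = 0.0181) and NFE2L2 (0.28, adjusted p = 0.0368). Over all tested genes the block gave 2233 calls in either direction in that comparison, against 1674 without it. At 1.0 µM against 0.1 µM the block added HMOX1 (0.71, adjusted p = 0.0227) and OSGIN1 (1.00, adjusted p = 0.0307) to the 3 genes called. Between the doses it gave 256 calls over all tested genes, against 114 without it. Within the lower set alone, HMOX1 (1.18, adjusted p = 0.00521) and GCLM (0.85, adjusted p = 0.0132) were called at 0.1 µM, while OSGIN1, SRXN1 and NQO1 had changes of 1.08, 0.53 and 0.42 that did not pass. Between the doses none of the 9 was called within the lower set in limma, and 7 had an unadjusted p under 0.05.

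Beyond the 9 genes, 101 further listed genes were tested of 104 with a usable probe set. Their 9 lists were written from general knowledge with earlier results of these data known. A place on a list does not mean that NRF2 controls the gene. The lists are described by their counts and medians at 1.0 µM against DMSO, where over all tested genes 12.3% were higher, 11% lower and the median was 0.0064. Of 13 partners and upstream regulators of NRF2, 7 rose, 1 fell and 5 did not pass (median 0.36). MAFF, a small MAF protein, rose by 2.56 ± 0.12 (adjusted p = 6.41e-08), the 14th largest rise of all tested genes, with signals of 485, 413 and 367 in DMSO, 1108, 1259.9 and 1196 at 0.1 µM, and 2798, 2309 and 2579 at 1.0 µM. It was the only gene of this list also called at 1.0 µM against 0.1 µM (1.10 ± 0.12, adjusted p = 0.00227), a call kept without each array in turn. The small MAF gene MAFG rose by 0.91 ± 0.11, and SQSTM1, an autophagy receptor that binds KEAP1, rose by 0.99 ± 0.18. Its 5 probe sets rose by 0.59 to 2.18. RBX1, a subunit of the ubiquitin ligase that acts on NRF2, fell by 0.43, and that call was lost without DMSO replicate 2 (-0.37), without 1.0 µM replicate 1 (-0.41) or without 1.0 µM replicate 3 (-0.37).

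Of 12 genes of glutathione supply and recycling, 6 rose, none fell and 6 did not pass (median 0.22). SLC7A11 and SLC3A2, the light and the heavy chain of the cystine transporter, rose by 2.42 ± 0.09 and 1.51 ± 0.12. SLC7A11 had signals of 668, 719 and 809.6 in DMSO, 2887, 2961 and 3156 at 0.1 µM, and 3979.7, 3849 and 4101 at 1.0 µM, and its rise at 0.1 µM was 2.02 ± 0.09. CHAC1, an enzyme that breaks glutathione down, rose by 1.81 ± 0.16. Of 7 genes of NADPH supply, 4 rose and 1 fell (median 0.62). ME1, the cytosolic malic enzyme, rose by 2.21 ± 0.10 and IDH1, the cytosolic isocitrate dehydrogenase, by 1.33 ± 0.17, while NNT, the mitochondrial transhydrogenase, fell by 0.77. The 3 probe sets of IDH1 all rose, by 0.56 to 1.38, and the 4 of NNT ran from -0.77 to -0.25, with 2 called lower.

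Of 16 glutathione peroxidases and transferases, 1 rose, 3 fell and 12 did not pass (median -0.10). The microsomal transferase gene MGST1 rose by 1.81 ± 0.15, with signals of 718, 596 and 443 in DMSO, 1564, 1893 and 1670.1 at 0.1 µM, and 1969.8, 2069.7 and 2140.1 at 1.0 µM. GSTM3 fell by 0.60, while its other probe set was not called (-0.44), and MGST3 fell by 0.40, the call of MGST3 being lost without DMSO replicate 1 (-0.41), DMSO replicate 2 (-0.33), 0.1 µM replicate 3 (-0.40), 1.0 µM replicate 1 (-0.37) or 1.0 µM replicate 3 (-0.33). None of the 3 probe sets of MGST3 passed over all probe sets (0 called, with changes of -0.66 to -0.39). Of 14 thioredoxin and peroxiredoxin genes, 2 rose and 3 fell (median -0.01). PRDX2 fell by 1.08, PRDX4, a peroxiredoxin of the endoplasmic reticulum, fell by 0.60, and TXNIP, which binds thioredoxin, rose by 0.78 ± 0.19 (0.73 and not called within the lower spike set). The 4 probe sets of PRDX2 ran from -1.77 to 0.05. MSRA, a methionine sulfoxide reductase, rose by 0.35, a call lost without DMSO replicate 1 (0.33), DMSO replicate 2 (0.31) or 1.0 µM replicate 1 (0.34). Of 8 genes of superoxide and peroxide removal, 2 rose and 2 fell (median -0.04). SESN2, a sestrin, rose by 1.76 ± 0.17 and SOD2, the mitochondrial superoxide dismutase, by 1.48 ± 0.18, and CAT, catalase, fell by 0.57.

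Of 15 genes of quinone and carbonyl reduction and drug export, 5 rose and 2 fell (median 0.12). The carbonyl reductase gene CBR3 rose by 2.06 ± 0.15 and the quinone reductase gene NQO2 by 1.36 ± 0.13, while its other probe set changed by 0.36 and was not called. ABCG2, an export pump, fell by 1.10 and UGDH, which makes UDP-glucuronate, fell by 0.45. Between the doses CBR3 was higher at 1.0 µM by 0.89 ± 0.15 (adjusted p = 0.0219) and ABCG2 lower by -0.53 ± 0.11 (adjusted p = 0.0461). The call of CBR3 was lost without 0.1 µM replicate 1 (0.78), 0.1 µM replicate 2 (0.92) or 1.0 µM replicate 3 (0.83). The call of ABCG2 was lost without any array other than 1.0 µM replicate 2, with adjusted p of 0.0507 to 0.223. With the replicate number as a block, both calls were lost as well (CBR3 adjusted p = 0.0534, ABCG2 adjusted p = 0.149). Of 9 haem and iron genes other than HMOX1, 3 rose and 1 fell (median 0.19). BLVRB, a biliverdin reductase, rose by 1.78 ± 0.14, with signals of 3381, 4714 and 3535 at 1.0 µM against 1031, 1187 and 1113 in DMSO. SLC48A1, a haem transporter, rose by 0.54 ± 0.15, a call lost without DMSO replicate 1 (0.44), DMSO replicate 2 (0.51) or 1.0 µM replicate 3 (0.45). TFRC, the transferrin receptor, fell by 0.34, a call lost without DMSO replicate 2 (-0.29), DMSO replicate 3 (-0.34), 1.0 µM replicate 1 (-0.31) or 1.0 µM replicate 3 (-0.34). All 3 probe sets of TFRC were called lower, with changes of -0.89 to -0.34, and 2 of the 3 of SLC48A1 were called higher, with changes of 0.54 to 0.97. Of 7 metallothionein and zinc export genes, none rose and 1 fell (median -0.21). MT1F fell by 0.31, a call lost without DMSO replicate 1 (-0.30), DMSO replicate 2 (-0.27), 1.0 µM replicate 1 (-0.28) or 1.0 µM replicate 3 (-0.33), its other probe set changed by 0.015, and MT1X and MT1H changed by -0.30 and -0.17.

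At 0.1 µM against DMSO the same lists held 5 rises of 13 among the partners, 5 of 12 in glutathione supply, 1 of 16 among peroxidases and transferases, 1 of 14 among thioredoxin and peroxiredoxin genes, 2 of 8 in superoxide and peroxide removal, 3 of 7 in NADPH supply, 4 of 15 in quinone and carbonyl reduction and export, 1 of 9 in haem and iron handling and 0 of 7 among metallothioneins. Of all tested genes 6.89% were called higher and 5.11% lower at that dose. The falls at that dose were 2 thioredoxin and peroxiredoxin genes, 1 gene of peroxide removal, 1 of NADPH supply, 2 of quinone and carbonyl reduction and export and 1 of iron handling. At 1.0 µM against 0.1 µM, MAFF and CBR3 were the called rises and ABCG2 the called fall over all 9 lists.

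**Figure D4:**
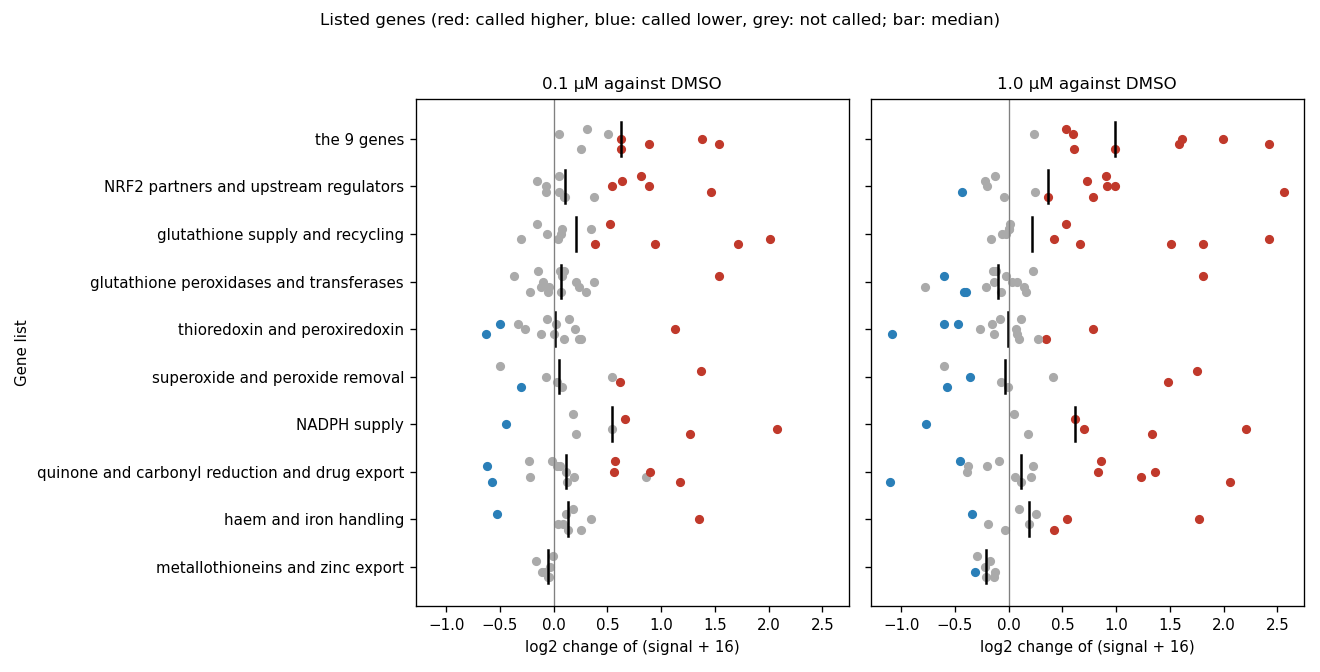
Log2 change of (signal + 16) for the tested genes of each list at 0.1 µM (left) and 1.0 µM (right) against DMSO; each point is a gene, red called higher, blue called lower, grey not called, and the bar is the list's median. The 9 genes and the NADPH supply list have the highest medians at 1.0 µM, 0.99 and 0.62, while the lists of peroxidases and transferases and of metallothioneins have medians of -0.10 and -0.21.

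The genes whose level followed each member most closely over the 9 arrays were found by Pearson's r on the log2 scale over 3 groups of 3 arrays, which share their doses and spike sets, and r is given as a description. HMOX1 was nearest to TMEM42 (r = 0.997), GDF15 (0.995) and SMOX (0.993). OSGIN1 was nearest to SLC3A2 (0.994), RPL22L1 (0.9898) and EMILIN2 (0.989). SRXN1 was nearest to PIK3CD (0.988), TIFA (0.985) and CEBPD (0.983).
GCLM was nearest to SLC41A2 (0.994), GPAT3 (0.993) and NFIL3 (0.991), and GCLC to LINC02693 (0.983), SH3BP5 (0.9796) and RND3 (0.977). TXNRD1 was nearest to CCN1 (0.988), COTL1 (0.988) and HSPA5 (0.987), and NQO1 to ERP29 (0.995), NARS1 (0.993) and ASNS (0.991). NFE2L2 was nearest to SLC35H1 (0.982), RPL22L1 (0.975) and TMOD1 (0.972), and KEAP1 to ST6GALNAC4 (0.982), KCTD13 (0.948) and RRP8 (0.946). The changes of these nearest genes at 1.0 µM ran from 0.24 for KCTD13 to 1.59 for GPAT3. Among them, and picked by no fixed rule, HSPA5 changed by 0.56 at 1.0 µM and 0.46 at 0.1 µM, and ASNS by 1.04 at both doses.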

How the data were processed

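Total RNA of 9 samples was hybridised to HG-U133 Plus 2.0 arrays, and the authors deposited a linear intensity per probe set, the MAS5 signal per the submitters' processing notes (version not given in the sources used here). Every array averages 500.1 in the deposited values once the top and bottom 2% are left out, and the log2 ratio of 3′ to 5′ probe sets was -0.22 to -0.10 for GAPDH and 0.10 to 0.24 for ACTB. Arrays of a group correlated at 0.975 to 0.984, and none were identical. The number of arrays limits the precision.

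From the deposited values log2(signal + 16) was computed with no further normalization. Of 54675 probe sets, 62 array controls were left out, 41091 name 1 gene, 1801 several and 11721 none. Symbols were updated by Entrez identifier to RefSeq (GRCh38.p14) for 41037 of those naming 1 gene. A filter at the 40th percentile of average signal (38.95) left 32768, and the brightest stood for each of 13948 genes. Groups were compared with limma 3.58.1 (lmFit, eBayes with trend) in R 4.3.3, all 9 arrays in 1 fit with 6 residual and 5.93 prior degrees of freedom, two-sided, with Benjamini-Hochberg adjustment. The fit was tested on simulated data.

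The members and lists were chosen with earlier results of these data known. Named genes were all members, the 3 of smallest p in each list, called genes that moved against their list, and the 3 nearest profiles of each member. Alternatives were other added constants, filters, normalizations, probe set rules, eBayes settings, arrays in the fit, array weights, the replicate number or spike set as a block, each spike set alone, each array left out and a fold of at least 1.5. Same-numbered arrays did not deviate together (correlations of -0.34 to 0.22), so replicate numbers were not taken as pairs. Same-numbered arrays fall in different spike sets, so these correlations cannot exclude a pairing. Some genes of the lists were not analysed here.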

Additional observations from a re-analysis of the deposited data

Results flagged for a closer look

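The response of 3 of the 9 genes differed between the 2 doses by a test of the difference itself (limma, adjusted over all tested genes). SRXN1 was higher at 1.0 µM than at 0.1 µM by 0.99 on the log2 scale, GCLC by 0.73 and GCLM by 0.696. In the probe set that stands for each gene, all 3 arrays at 1.0 µM lay above all 3 at 0.1 µM. The share of all tested genes with that pattern was not counted. The GCLC probe set 202922_at overlapped between the doses, with 2101.7 on an array at 1.0 µM and 2117.9 on an array at 0.1 µM. With each array left out in turn, SRXN1 stayed called every time, and GCLC and GCLM did not.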

How the results depend on the processing

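For the higher dose, 230 of the 234 values of the 9 genes under 26 alternatives kept direction and call, and 4 lost the call. The alternatives include each spike set alone. In the higher set single arrays of DMSO and 1.0 µM were compared, and the spread came from the 0.1 µM arrays. Calls from that fit therefore rest on the spread of another group. The losses were those of TXNRD1 and NQO1 without a DMSO array, given above, and NFE2L2 when a fold of at least 1.5 was also asked. At 0.1 µM against DMSO 212 of 234 were kept, 8 lost and 12 gained the call, and 2 changed sign, and between the doses 197 were kept, 20 lost and 5 gained it, and 12 changed sign. Of the 28 named list genes called at 1.0 µM, 17 kept the call under every alternative, and of the 21 at 0.1 µM, 9. Of MAFF, CBR3 and ABCG2 between the doses, for which the alternatives were added after seeing the data, none kept the call under every alternative, MAFF losing it only within the lower spike set (1.08, adjusted p = 0.216). The cause of these changes was not tested.

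The genes called at 1.0 µM numbered 3240, and 1788 with the fold of 1.5, and the probe sets 5772, and 3511 with that fold; without each array in turn they were 2343 to 3329 and 3888 to 5679. At 0.1 µM against DMSO 1674 genes were called, 924 with the fold of 1.5, 324 within the lower spike set and 843 to 2003 without each array, and 2703 probe sets, 1712, 396 and 1249 to 3241 likewise. The members called there were 5, and 8 with the spike set as a block, 2 within the lower set and 4 to 6 without each array. Between the doses 114 genes were called. There were 67 with no filter, 173 with quantile normalization, 51 with median centring, 23 with eBayes without trend, 65 from the 6 arrays compared, 1953 with array weights, 256 with the spike set as a block, 1 within the lower set, 304 within the higher set and 11 to 186 without each array. The probe sets called between the doses were 92, against 38 with no filter, 150 with the filter at the 60th percentile, 33 with median centring, 0 with eBayes without trend (limma; 3303 at an unadjusted p under 0.05), 55 from the 6 arrays compared, 2082 with array weights, 237 with the spike set as a block, 2 within the lower set and 6 to 127 without each array. The members called between the doses were 3, against 1 with median centring, 1 with eBayes without trend, 5 with the spike set as a block, 0 within the lower set (7 at an unadjusted p under 0.05) and 1 to 3 without each array.

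With the replicate number as a block, 3 members' calls changed: NQO1 at 0.1 µM (0.63, adjusted p = 0.0539), and GCLC and GCLM between the doses. Of the named list genes, MGST3, TFRC and MT1F at 1.0 µM and CAT at 0.1 µM lost the call against DMSO, and CBR3 and ABCG2 lost it between the doses, while MAFF kept it. The block left 23 genes, 11 probe sets and 1 member called between the doses, 1747 probe sets at 0.1 µM, and 2550 genes at 1.0 µM. No label says whether same-numbered arrays share more than the number.

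Values near 0 changed sign. KEAP1 at 0.1 µM was -0.024 within the higher set and -0.053 to 0.108 without each array. GCLC 1555330_at at 0.1 µM was 0.16 with array weights, 0.36 within the higher set and -0.42 to 0.32 without each array. Of the uncalled list genes at 0.1 µM, MT1X was 0.019 with median centring, 0.077 with array weights and -0.104 to 0.168 without each array, and MGST3 was 0.087 as the mean of its probe sets, 0.21 with _s_at probe sets passed over and -0.155 to 0.033 without each array. Between the doses NQO1 was 0.049 with quantile normalization, 0.032 as the mean of its probe sets, 0.095 with the spike set as a block, 0.13 within the lower and 0.098 within the higher set, and -0.162 to 0.069 without each array. Its probe set 201467_s_at was -0.010 with median centring and -0.0017 to 0.073 without each array, and 201468_s_at was -0.0072 with array weights and -0.047 to 0.175 without each array. TXNRD1 between the doses was -0.066 with array weights over genes, -0.042 over probe sets, and -0.066 to 0.19 without each array.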
